A study of Mus musculus with 18 samples.

Results

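The dystrophin-glycoprotein complex spans the surface membrane of muscle fibres and ties the actin cytoskeleton inside the fibre to the basal lamina outside it. Dystrophin binds actin and the membrane protein dystroglycan, dystroglycan binds laminin through its sugar chains, the sarcoglycans form a side group in the membrane, and dystrobrevins and syntrophins are adaptors on the inner face. Loss of several of these proteins causes muscular dystrophy, and utrophin, a close relative of dystrophin, and α-dystrobrevin are concentrated at the neuromuscular junction. The genes followed here were listed by name: Dmd (dystrophin), Utrn (utrophin), Dag1 (dystroglycan), Sgca, Sgcb and Sgcd (α-, β- and δ-sarcoglycan), Dtna (α-dystrobrevin), Sntb1 (β1-syntrophin) and Lama2 (the α2 chain of laminin). These are 9 of 35150 genes with a value, and each gene's level was the sum of the transcript abundances (TPM, scaled for length and depth) of its Ensembl transcripts.

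RNA was sequenced from skin and muscle of both rostral whisker pads of 9 adult mice, from a study that used both sexes. On the right side the facial nerve was cut at its buccal and superior marginal branches (denervated), and on the left the skin was opened and closed over an intact nerve (sham). Pads were taken from 3 mice each at day 1, 3 or 7, which gave 18 samples in 6 groups of 3, and the strain of these mice was not given in the sources used here. The comparison asked how the complex differed between the paralysed pad and the sham pad of the same mice at each time. Every denervated sample was a right pad and every sham sample a left pad, so that lesion and body side cannot be told apart, and the samples held no uninjured mice.

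Each biopsy held skin and muscle together. The sum of 14 muscle fibre markers ran from 8004 to 44870 TPM, the sum of 10 keratinocyte markers from 7497 to 13400 TPM and that of 8 Schwann cell markers from 172.3 to 767.4 TPM. Mouse 1 of day 1 had the least muscle RNA, with 8004 TPM of fibre markers in its sham pad and 11640 TPM in its denervated pad, against 23280 to 44870 TPM in the other 16 samples. In such tissue, fewer cells of a type and less RNA per cell cannot be told apart. Depth, estimated from the spacing of the low values, was 10300000 to 32000000 reads per sample.

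On the GRCm38 genome Dmd lies at chrX:82948870-85206141 (plus strand) and has starts far apart: a muscle start at the 5′ end for full-length dystrophin, and one near the 3′ end for a short form that lacks the actin-binding end. The short coding transcript Dmd-201, 4438 bases long, held 87.1% of the Dmd value over the 18 samples (76.0 to 94.3% in single samples), whereas the full-length transcript Dmd-203, 14910 bases long, held 1.79%. Utrn had the same form, since the 3′ transcript Utrn-206 (5751 bases) held 89.5% and the full-length Utrn-201 (12382 bases) 4.76%. Of Lama2, the 3′ transcript Lama2-208 (3383 bases) held 82.1% and the full-length Lama2-201 (9614 bases) 9.99%. Reads from exons that a short and a long transcript share can be given to either, so that a truly short RNA and a long RNA read mostly at its 3′ end cannot be told apart in these values, and the levels of Dmd, Utrn and Lama2 are those of the gene's 3′ part.

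Members other than Dmd and Dtna lie elsewhere in the same build, on the minus strand, Utrn at chr10:12382188-12869365, Lama2 at chr10:26980036-27619758, Dag1 at chr9:108204634-108263958, Sgca at chr11:94962791-94976327, Sgcd at chr11:46896253-47988969, Sgcb at chr5:73632749-73647790, Sntb1 at chr15:55636388-55906949. Values cover the exons of their annotated transcripts, untranslated parts included. In Sgcb, Sgcd, Dag1 and Sntb1 a single coding transcript held 94.7% or more of the gene's value.

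The windows around annotated RefSeq starts (GRCm38.p6, 250 bases before to 50 after the start) were read for 7 of the 9 genes, and Sntb1 and Dtna had no entry. They are shown for both Dmd starts, because almost all of the Dmd value lay on transcripts that begin in the 3′ part, and for Sgca and Sgcd, the pair of sarcoglycans whose samples lay on opposite sides of sham at day 3. Capitals mark the E-box CANNTG, a general pattern that includes the sites of muscle transcription factors such as MyoD and myogenin. It was searched on both strands (the motif reads the same on each), and a match was not read as a bound site.
Dmd, 5′ start, chrX:82948620-82948919, plus strand: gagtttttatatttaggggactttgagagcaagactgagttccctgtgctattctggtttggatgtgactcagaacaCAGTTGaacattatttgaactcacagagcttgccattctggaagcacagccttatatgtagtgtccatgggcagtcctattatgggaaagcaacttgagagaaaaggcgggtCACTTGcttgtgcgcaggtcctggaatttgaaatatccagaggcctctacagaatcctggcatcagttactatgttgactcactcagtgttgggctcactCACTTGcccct
Dmd, 3′ start, chrX:85048045-85048344, plus strand: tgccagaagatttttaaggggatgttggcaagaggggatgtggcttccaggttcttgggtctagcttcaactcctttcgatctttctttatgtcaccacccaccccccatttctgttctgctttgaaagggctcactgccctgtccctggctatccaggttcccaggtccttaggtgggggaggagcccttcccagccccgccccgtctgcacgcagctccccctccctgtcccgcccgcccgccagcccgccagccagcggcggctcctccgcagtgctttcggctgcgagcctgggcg
Sgca, chr11:94976278-94976577, minus strand: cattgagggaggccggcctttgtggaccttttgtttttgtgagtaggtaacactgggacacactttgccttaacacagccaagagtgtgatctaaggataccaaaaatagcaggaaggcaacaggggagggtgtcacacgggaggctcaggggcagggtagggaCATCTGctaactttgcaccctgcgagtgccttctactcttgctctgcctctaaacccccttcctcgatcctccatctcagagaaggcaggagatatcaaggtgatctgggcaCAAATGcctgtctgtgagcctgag
Sgcd, chr11:47379276-47379575, minus strand: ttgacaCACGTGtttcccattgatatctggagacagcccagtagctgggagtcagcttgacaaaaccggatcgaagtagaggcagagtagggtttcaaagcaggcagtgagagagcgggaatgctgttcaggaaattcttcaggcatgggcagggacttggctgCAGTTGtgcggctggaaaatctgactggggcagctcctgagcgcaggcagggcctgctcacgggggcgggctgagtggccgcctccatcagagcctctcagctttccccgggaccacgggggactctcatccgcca
The 5′ window of Dmd held 3 E-boxes and the 3′ window 0. That 3′ window ends at chrX:85048344, before the annotated start of Dmd-201 (chrX:85048413). The windows of Sgca and Sgcd held 2 each. Of 32851 windows of the same length, 72.3% held at least 1 E-box and 17.6% held 3 or more, so the counts are a description of these letters. The Sgcd window spans the start of the transcript Sgcd-201 (chr11:47379522), which carried 98.6% of that gene. Most of that window lies inside the transcript, since the RefSeq start is further downstream. The Sgca window begins Sgca-202, which carried 7.58%. A second motif, the N-box CCGGAA of synaptic genes, searched on both strands, was found in 0 of the members' windows and in 14.9% of all windows.

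The sham pads show the levels of the complex without the nerve cut. TPM is a per-length scale, so levels can be set side by side where the length of the RNA is known. For Dmd, Utrn and Lama2 the values are those of the 3′ part, and the length is uncertain. Their places in the order below share that limit. Over the 9 sham samples the order was Sgca (76.5 ± 28.4 TPM, SD), Dag1 (39.8 ± 6.01), Dtna (26.7 ± 8.996), Sgcb (23.3 ± 5.25), Dmd (20.96 ± 3.74), Utrn (16.8 ± 2.83), Lama2 (10.8 ± 3.75), Sntb1 (4.49 ± 0.766) and Sgcd (3.04 ± 0.589). Most neighbours in this order kept it in 8 or 9 of the 9 samples. Dtna lay above Sgcb in 7 samples, with a mean log2 gap of 0.11 ± 0.40 (SD), and Sgcb above Dmd in 7 samples, with a gap of 0.13 ± 0.23, so these 3 genes did not differ beyond their spread. Sgcd was the lowest of the 9 members and rested on few reads, an estimated 19 to 71 per sample, against 194 or more in any sample of the other 8 genes.

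**Figure D1:**
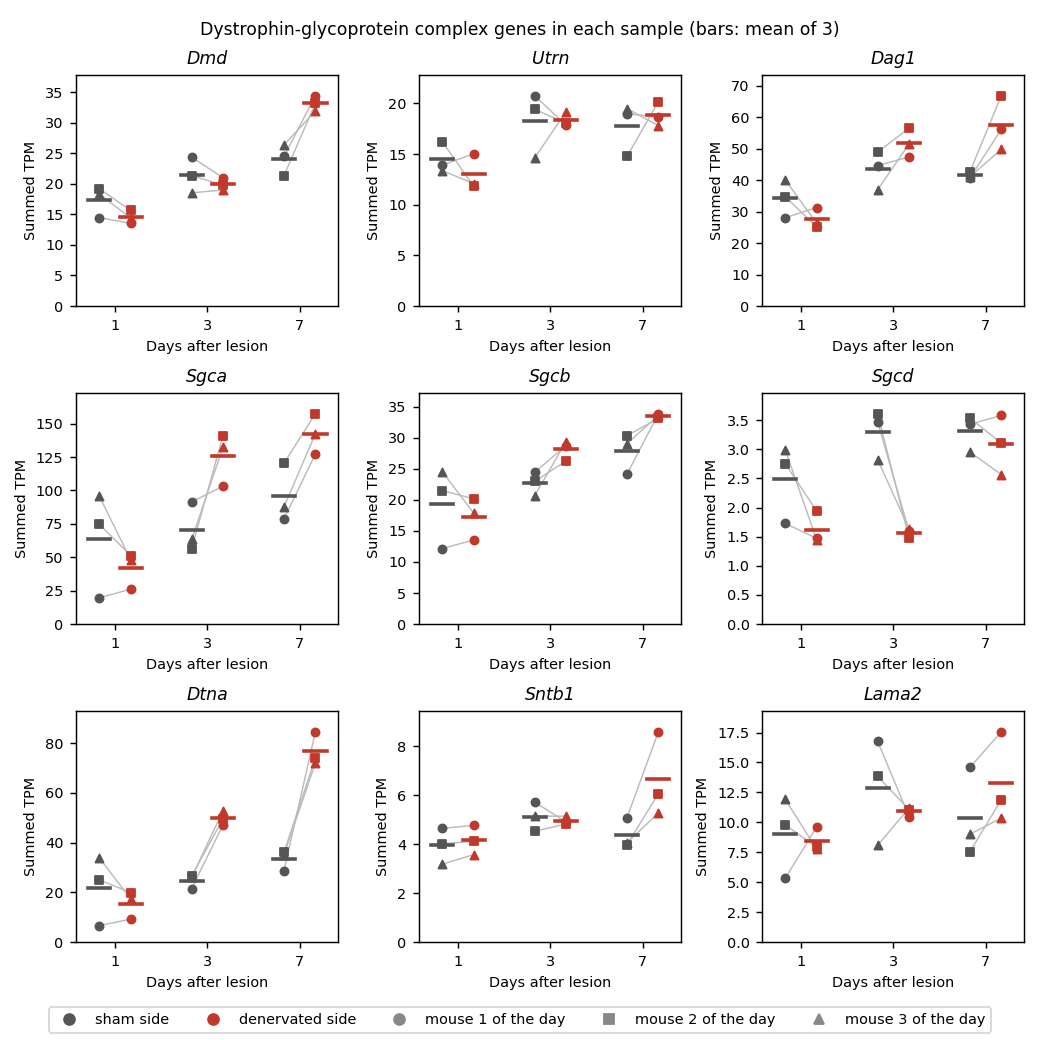
Summed TPM of the 9 genes (vertical axes, each from 0) by day after the lesion, with one point per sample, grey for the sham and red for the denervated pad, a line joining the pads of a mouse and a bar for the mean of 3. The red points of Dtna lie above every grey point at days 3 and 7, from 47.2 to 52.9 TPM at day 3 and from 72.1 to 84.6 TPM at day 7, and those of Sgcd lie below at day 3.

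α-Dystrobrevin was the member that rose by the test across all genes. At day 3, Dtna was at 21.6, 26.6 and 26.1 TPM in the sham pads of mice 1, 2 and 3 and at 47.2, 49.6 and 52.9 TPM in their denervated pads. At day 7, it was at 28.8, 36.1 and 35.2 TPM in the sham pads and at 84.6, 74.1 and 72.1 TPM in the denervated pads. Every denervated sample lay above every sham sample at both times. On the log2(TPM + 0.5) scale, which all differences below use, Dtna rose by 1.00 ± 0.11 (SE, n = 3 mice) at day 3, a 2.00-fold difference with a limma adjusted p of 0.0126, and by 1.20 ± 0.13 at day 7, a 2.29-fold difference with an adjusted p of 0.00997. In a paired fit by mouse these adjusted p were 0.0213 and 0.0224. At day 3, 1 of the 9 members was called higher and 0 lower, and 1.45% of 14943 genes were called (1.01% higher, 0.442% lower). At day 7, 1 was called higher and 0 lower, and 1.53% of 15081 genes were called (1.01% higher, 0.511% lower).

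The Dtna calls were lost without mouse 2 or mouse 3 of the day and held without mouse 1. Without mouse 1 the adjusted p was 0.0384 at day 3 and 0.0492 at day 7, with log2 differences of 0.95 and 1.03. Without mouse 2 or mouse 3 of day 3 the adjusted p was 0.229 and 0.194, with log2 differences of 1.06 and 1.00, and 7 and 0 genes of all were then called. Without mouse 2 or mouse 3 of day 7 it was 0.205 and 0.183, with differences of 1.28 and 1.28. Over the 14 alternatives the adjusted p ran from 0.00989 to 0.304 at day 3 and from 0.00278 to 0.216 at day 7. Scaled to the muscle fibre markers, the difference was 0.99 at day 3 (adjusted p = 0.0176) and 1.34 at day 7 (adjusted p = 0.00278). On that scale the median of all genes was -0.03 at day 3 and 0.17 at day 7, against -0.01 and 0.04 without it.

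At day 1, Dtna showed a different picture. It was at 6.69, 25.1 and 33.9 TPM in the sham pads and at 9.23, 19.95 and 17.4 TPM in the denervated pads, so that the groups overlapped and mouse 1 was low on both sides. The difference was -0.28 ± 0.62, with an adjusted p of 0.999. Per 1000 TPM of muscle fibre markers, the same day 1 samples lay between 0.836 and 0.902 TPM in the sham pads and between 0.747 and 0.806 TPM in the denervated pads. On that scale the denervated pads reached 1.51 to 1.90 TPM at day 3 and 1.90 to 2.05 TPM at day 7, against 0.730 to 0.908 TPM in the sham pads of those days.

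Dtna was also the member with the most even spread over transcripts. Dtna-201 held 56.2% of its value, Dtna-206 19.8% and Dtna-209 12.4%. Dtna-201 went from 12.3 ± 3.14 TPM (SD, n = 3) in the sham to 31.5 ± 5.46 TPM in the denervated pads at day 3, and from 16.5 ± 3.16 to 47.1 ± 3.397 TPM at day 7. Dtna-206 was at 5.34 ± 0.620 and 8.58 ± 1.40 TPM at day 3 and at 7.69 ± 0.143 and 13.8 ± 2.45 TPM at day 7. Dtna-209 was at 3.14 ± 0.334 and 5.15 ± 0.679 TPM at day 3. All 3 transcripts were higher in the denervated pads at days 3 and 7, as means, with no test made of single transcripts. Counting the highest transcript alone gave a larger log2 difference at day 3, 1.34, with an adjusted p of 0.0621.

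**Figure D2:**
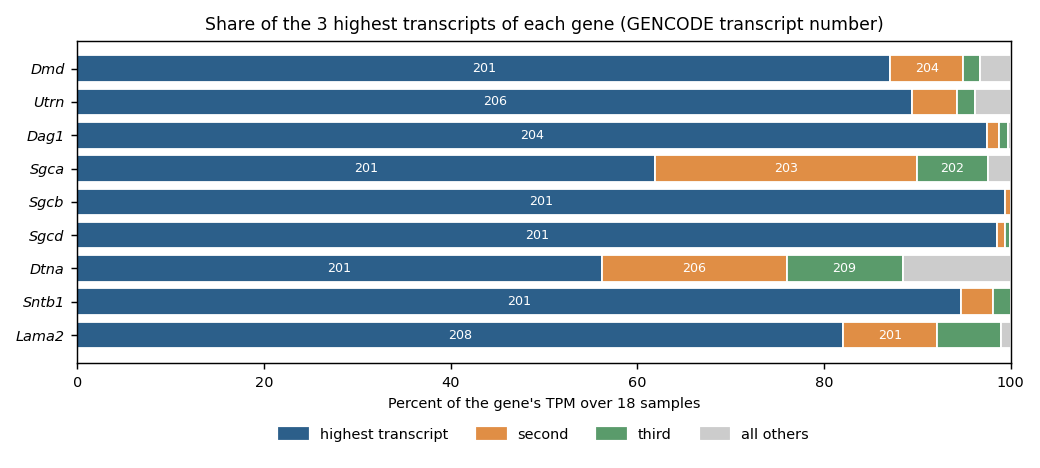
Share of the value of each of the 9 genes over the 18 samples (horizontal axis, percent) held by its 3 highest transcripts, with the GENCODE transcript number on shares above 7%. A single transcript carries over 80% of each gene except Sgca and Dtna, where the highest held 61.9% and 56.2%.

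The sarcoglycans did not move as one group. Sgca was at 91.4, 56.4 and 63.3 TPM in the sham pads of day 3 and at 103.2, 141.0 and 132.5 TPM in the denervated pads. The denervated samples lay above the sham samples, although mouse 1 differed by only 0.17 on the log2 scale against 1.31 and 1.06 in mice 2 and 3. The difference was 0.85 ± 0.21 (1.80-fold), with an adjusted p of 0.136. Without mouse 1 it was 1.19, with an adjusted p of 0.0359, and over the 14 alternatives the adjusted p ran from 0.0359 to 0.697. At day 7 Sgca was at 78.8, 120.4 and 87.7 TPM in the sham and at 127.3, 157.5 and 142.5 TPM in the denervated pads, again without overlap. The difference was 0.59 ± 0.18, with a limma adjusted p of 0.247, and of 0.0713 when paired by mouse. Sgca was carried mainly by Sgca-201 with 61.9% and Sgca-203 with 28.1% of its value, and at day 3 their means were 48.3 and 16.7 TPM in the sham and 81.8 and 36.3 TPM in the denervated pads.

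Sgcb, whose product pairs closely with δ-sarcoglycan in the assembly of the sarcoglycan group, differed less. It was at 24.4, 23.0 and 20.7 TPM in the sham and at 28.7, 26.3 and 29.4 TPM in the denervated pads at day 3, and at 24.2, 30.3 and 29.1 TPM against 33.9, 33.1 and 33.6 TPM at day 7. The groups did not overlap at either time. The differences were 0.31 ± 0.10 and 0.27 ± 0.12, with adjusted p of 0.23 and 0.443.

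Sgcd went the other way at day 3. It was at 3.48, 3.61 and 2.83 TPM in the sham pads and at 1.595, 1.48 and 1.64 TPM in the denervated pads, with every denervated sample below every sham sample. The difference was -0.87 ± 0.16 (0.546-fold), with an unadjusted p of 0.00139 and an adjusted p of 0.0697. The estimated reads behind these values were 46 to 71 in the sham and 19 to 52 in the denervated samples. At day 7 the groups overlapped, with 3.43, 3.54 and 2.95 TPM in the sham and 3.58, 3.10 and 2.57 TPM in the denervated pads, and the difference was -0.09 ± 0.18.

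Over all 9 mice, Sgcd was lower on the denervated side in 8 and higher in 1, and it was the 1 member that fell in the fit over all days. There the difference was -0.48 ± 0.12 with a limma adjusted p of 0.0435, and 3.1% of 14757 genes were called (1.92% higher, 1.18% lower). Pairing by mouse gave an adjusted p of 0.0787, and this p ran from 0.0252 to 1 over the 18 alternatives, under 0.05 in 7 of them. Without single mice of days 1, 3 or 7 the adjusted p was between 0.0252 and 0.162. An exact two-sided sign-flip test over the 9 mice, adjusted over all genes, called 0 members, and 0% of 14757 genes, of which 2398 had an unadjusted p under 0.05. Its smallest possible p is 0.0039, so after adjustment over all genes none could be called unless very many reached that value. For that reason the 0 calls do not decide on Sgcd or Dtna. Sgcd had a sign-flip p of 0.00781 (adjusted 0.134) and Dtna, higher in 7 of 9 mice, of 0.0469 (adjusted 0.288).

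Within samples, the ratio of Sgcd to Sgca was 0.0489 ± 0.0135 (SD, n = 3) in the sham and 0.0128 ± 0.00250 in the denervated pads of day 3, and 0.0355 ± 0.00728 and 0.0220 ± 0.00543 at day 7. These ratios were chosen after the values were seen and were not tested.

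**Figure D3:**
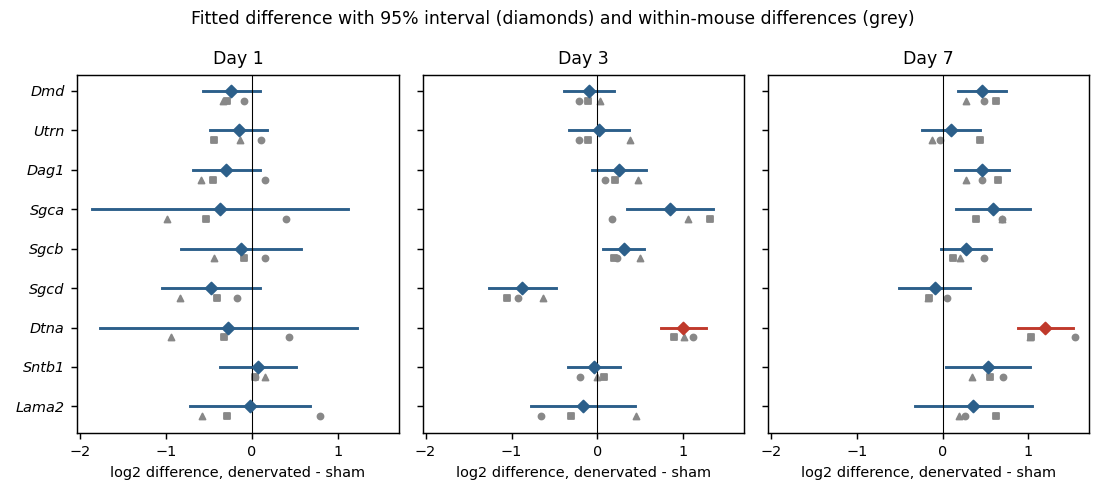
Difference between denervated and sham pads on the log2(TPM + 0.5) scale (horizontal axes) for the 9 genes at days 1, 3 and 7. Diamonds and lines are the limma estimate with its 95% interval, red where the adjusted p was under 0.05, and grey symbols are the 3 mice of that day. The intervals of Dtna and Sgca are widest at day 1, and the 2 red intervals are those of Dtna at days 3 and 7.

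The genes of dystrophin and dystroglycan had their largest differences at day 7, with the Dmd value mostly that of the gene's 3′ part. Dmd was at 24.5, 21.4 and 26.4 TPM in the sham pads of day 7 and at 34.5, 33.3 and 31.95 TPM in the denervated pads. Dag1 was at 40.8, 42.8 and 41.1 TPM and at 56.2, 66.9 and 49.85 TPM. Both genes had every denervated sample above every sham sample. The difference of Dmd was 0.46 ± 0.12 (1.38-fold, unadjusted p = 0.00649, adjusted p = 0.163) and that of Dag1 0.46 ± 0.13 (1.37-fold, unadjusted p = 0.0115, adjusted p = 0.224). Neither was past the threshold under any of the 14 alternatives, over which the adjusted p ran from 0.0875 to 0.713 for Dmd and from 0.136 to 0.728 for Dag1.

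At days 1 and 3 Dmd lay close to sham. It was at 14.5, 19.2 and 18.3 TPM in the sham and at 13.5, 15.7 and 14.4 TPM in the denervated pads at day 1, lower in each of the 3 mice though the groups overlapped. At day 3 it was at 24.4, 21.4 and 18.5 TPM and at 21.02, 19.8 and 19.0 TPM. The differences were -0.24 ± 0.14 and -0.09 ± 0.12. The short transcript Dmd-201 was at 21.8 ± 1.71 TPM (SD, n = 3) in the sham and 28.9 ± 0.787 TPM in the denervated pads of day 7, and the full-length Dmd-203 at 0.496 ± 0.183 and 0.800 ± 0.244 TPM.

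Dag1 at day 1 was at 28.1, 34.8 and 40.1 TPM in the sham and at 31.3, 25.2 and 26.3 TPM in the denervated pads, and at day 3 at 44.7, 48.9 and 36.95 TPM against 47.4, 56.6 and 51.5 TPM. Its denervated pads were the lower ones in 2 of 3 mice at day 1 and the higher ones in all 3 mice at days 3 and 7. The differences at days 1 and 3 were -0.30 ± 0.16 and 0.26 ± 0.13, neither called.

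Utrophin, the relative of dystrophin concentrated at the neuromuscular junction, differed little. Utrn was at 13.9, 16.2 and 13.4 TPM in the sham and at 15.02, 11.8 and 12.1 TPM in the denervated pads at day 1, at 20.8, 19.4 and 14.6 TPM against 17.8, 18.03 and 19.2 TPM at day 3, and at 19.0, 14.8 and 19.5 TPM against 18.6, 20.2 and 17.8 TPM at day 7. The groups overlapped at each time, with differences of -0.16, 0.02 and 0.09. The 95% interval of the difference at day 7 ran from -0.24 to 0.43.

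The ratio of Utrn to Dmd at day 7 was 0.734 ± 0.0423 (SD, n = 3) in the sham and 0.568 ± 0.0343 in the denervated pads, and at day 3 it was 0.849 ± 0.0601 and 0.923 ± 0.0805. These ratios too were not tested.

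The adaptor Sntb1, whose product binds dystrophin, dystrobrevin and signalling proteins, was among the lowest members. At day 7 it was at 5.09, 3.99 and 4.07 TPM in the sham and at 8.60, 6.07 and 5.28 TPM in the denervated pads, higher in each mouse and without overlap, with a difference of 0.53 ± 0.21 and an adjusted p of 0.37. At day 1 it ran from 3.18 to 4.65 TPM in the sham and from 3.58 to 4.77 TPM in the denervated pads, and at day 3 from 4.53 to 5.72 TPM and from 4.83 to 5.15 TPM. The laminin chain gene Lama2 varied widely between sham pads of one day, from 8.08 to 16.8 TPM at day 3 and from 7.56 to 14.6 TPM at day 7. Its denervated pads were at 10.5 to 11.2 TPM at day 3 and 10.4 to 17.6 TPM at day 7. The differences of -0.17 ± 0.25 and 0.36 ± 0.29 were not called. At day 7 Lama2 was higher in each mouse (0.26, 0.62 and 0.19). The limma unadjusted p was then 0.252, and 0.0435 when paired by mouse (adjusted 0.688 and 0.267).

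Read as a group, the 9 genes had a median log2 difference of -0.24 on day 1, 0.02 on day 3 and 0.46 on day 7, beside 0.01, -0.01 and 0.04 over all genes tested. Of the 9 differences, 1 was positive on day 1, 5 were on day 3 and 8 on day 7, with Sgcd the exception. The denervated and sham samples were apart for 0 members at day 1, where this held for 9.56% of all genes, for 4 at day 3 (Sgca, Sgcb and Dtna above, Sgcd below), where it held for 21.5%, and for 6 at day 7 (Dmd, Sgca, Sgcb, Dag1, Sntb1 and Dtna, all above), where it held for 17.6%. Of the 9 other genes of the complex that were tested at day 7, 3 had a positive difference, with a median of -0.11. The members were chosen with earlier results of these data known, so their medians and counts are no test of the complex. With 3 mice a day, these counts describe the samples.

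At day 1, limma called 0 of the 9 members and 0% of 14776 genes, of which 634 had an unadjusted p under 0.05, none of them a member. Sgca at day 1 was at 19.7, 74.7 and 95.9 TPM in the sham and at 26.1, 51.3 and 48.1 TPM in the denervated pads. Its low mouse 1 is the one with the least muscle RNA, and the 95% interval of its difference, -1.87 to 1.11, was the widest beside that of Dtna. Sgcb at day 1 was at 12.2, 21.5 and 24.5 TPM and at 13.5, 20.2 and 17.9 TPM, with mouse 1 the lowest on both sides. Sgcd was at 1.73, 2.75 and 2.99 TPM and at 1.47, 1.94 and 1.45 TPM, lower in each mouse, and Lama2 at 5.33, 9.79 and 11.9 TPM and at 9.62, 7.93 and 7.77 TPM.

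**Figure D4:**
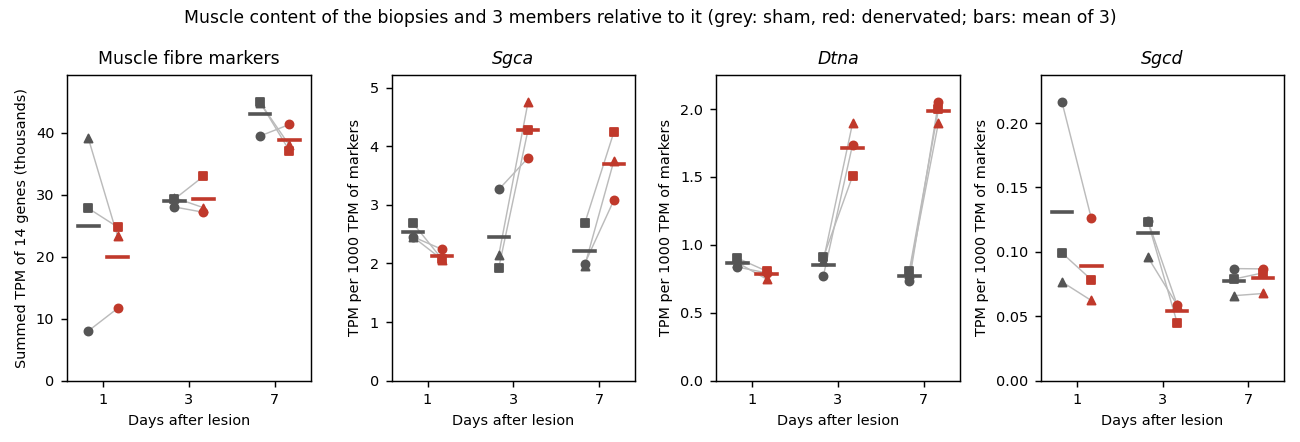
Left, summed TPM of 14 muscle fibre markers, on an axis in units of 1000 TPM, and right, the TPM of Sgca, Dtna and Sgcd per 1000 TPM of those markers, by day after the lesion, with grey for sham, red for denervated pads and bars for means of 3. Mouse 1 of day 1 (circles) has the lowest marker sums, 8004 and 11640 TPM, and on the per-marker scale its Dtna values fall beside those of the other mice of that day.

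Whether the effect of denervation itself differed between days was tested in a fit of all 18 samples. No member was called: 0.122% of 14757 genes were called for day 3 against day 1, 0.163% for day 7 against day 1 and 0% for day 7 against day 3, where 1013 genes had an unadjusted p under 0.05. By limma, the smallest unadjusted p among members was that of Dmd, whose difference was 0.70 ± 0.17 larger at day 7 than at day 1 (limma adjusted p = 0.213, unadjusted 0.00109), followed by Dag1 with 0.76 ± 0.21 (adjusted p = 0.311, unadjusted 0.00238). Sgcd was 0.78 ± 0.25 higher at day 7 than at day 3 (limma adjusted p = 0.64, unadjusted 0.00767).

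Without mouse 1 of day 1, the mouse with the least muscle RNA, 2 members were called in each of the comparisons with day 1. For day 3 they were Dtna (1.63 ± 0.21, limma adjusted p = 0.00384) and Sgca (1.61 ± 0.32, adjusted p = 0.0351), and for day 7 Dtna (1.83 ± 0.21, adjusted p = 0.00595) and Dag1 (0.99 ± 0.20, adjusted p = 0.0495). Then 148 and 82 genes of all were called, and at day 1 the differences of Sgca and Dtna were -0.76 and -0.63, with adjusted p of 0.16 and 0.258. The part of muscle content in these differences was not tested.

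Sham pads of different days were compared in the same fit. Dmd in the sham pads was 0.47 ± 0.12 higher at day 7 than at day 1 (unadjusted p = 0.00171, limma adjusted p = 0.0718), and Sgcb 0.56 ± 0.20 higher (adjusted p = 0.161). None of the 9 was called in any of the 3 comparisons between sham days, in which 0% of genes were called for day 3 against day 1, 0.976% for day 7 against day 1 and 0% for day 7 against day 3, with 1984, 2692 and 1938 genes at an unadjusted p under 0.05. The size of the difference from day 1 to day 7 moved with mouse 1 of day 1: without it 0 genes of all were called, where 144 had been, and the difference was 0.35 ± 0.12 for Dmd (limma adjusted p = 0.244) and 0.27 ± 0.12 for Sgcb (adjusted p = 0.354). The summed fibre markers of the sham pads moved the same way, from 24940 TPM on average at day 1 to 28910 TPM at day 3 and 43040 TPM at day 7, and their part was not tested.

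Of 12 other genes of the complex (sarcoglycans, sarcospan, syntrophins, dystrobrevin and further partners), 9 passed the filter, 0 were called in either direction at any day, and their median difference was -0.41, -0.13 and -0.11 at days 1, 3 and 7.

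Dtnb encodes β-dystrobrevin, the paralog of α-dystrobrevin known mostly from tissues other than muscle. At day 7, Dtnb was at 24.98, 24.6 and 30.3 TPM in the sham and at 14.1, 14.2 and 21.1 TPM in the denervated pads, a difference of -0.70 ± 0.19 with an adjusted p of 0.182. It was named after its values were seen. The ratio of Dtna to Dtnb was 1.26 ± 0.178 in the sham and 4.88 ± 1.33 in the denervated pads of day 7, and 0.947 ± 0.132 and 2.19 ± 0.155 at day 3.

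**Figure D5:**
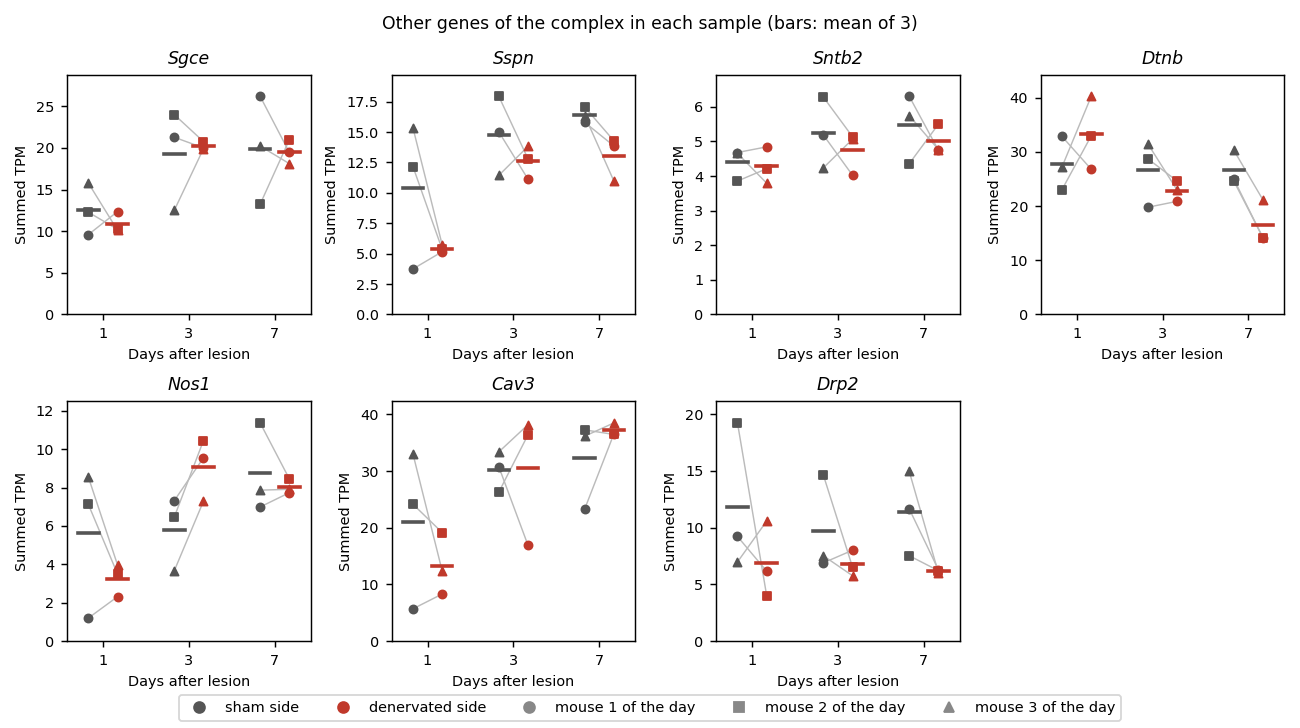
Summed TPM of 7 other genes of the complex that passed the filter (vertical axes, each from 0) by day after the lesion, drawn as in the plot of the 9 members. Dtnb lies below sham at day 7, with 14.1 to 21.1 TPM against 24.6 to 30.3 TPM.

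The genes on either side of the complex were counted from lists. Of 17 genes for enzymes that build the sugar chain of dystroglycan, 0 were called at any day, with medians of 0.04, 0.06 and 0.06, and the most abundant, Dpm2 and Dpm1, subunits of an enzyme that makes a mannose donor, were at 66.1 ± 3.78 and 63.3 ± 9.62 TPM in the sham and 61.4 ± 2.31 and 68.2 ± 9.93 TPM in the denervated pads of day 7. Of 19 genes for laminin chains and other basal lamina proteins, 18 passed the filter and 0 were called at a day or over all days, although pairing by mouse called Lamb2 lower over all days (-0.41, paired limma adjusted p = 0.0117, against 0.124 unpaired). Lama5 and Agrn were the highest of them, and Agrn, the gene of the organiser of the synapse, was at 78.9 ± 9.21 TPM in the sham and 64.3 ± 14.8 TPM in the denervated pads of day 7.

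Of 17 genes for integrin and costamere proteins, another link between the cytoskeleton and the membrane, 1 was called higher at day 3 and 1 at day 7. Sync, the gene of syncoilin, a filament protein that binds α-dystrobrevin, rose by 1.20 ± 0.14 at day 3 (limma adjusted p = 0.017), from 3.69 ± 0.579 to 9.07 ± 0.774 TPM. At day 7 its difference was 1.11 ± 0.20 (adjusted p = 0.0589, and 0.031 when paired by mouse). Flnc, the gene of filamin C, which binds actin and sarcoglycans, rose by 1.08 ± 0.11 at day 7 (adjusted p = 0.00776), from 26.8 ± 2.11 to 57.0 ± 2.47 TPM. The most abundant genes of the list, Des and Itgb1, were not called.

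Markers of the cells a biopsy can hold were read beside these results. Of the 14 fibre markers, Actn3 rose at day 3 (2.61, limma adjusted p = 0.0475) and day 7 (1.64, adjusted p = 0.00997) and Ckm fell by 1.12 at day 7 (adjusted p = 0.01), and their sums overlapped at day 3, 28000 to 29500 TPM in the sham and 27140 to 32940 TPM in the denervated pads. Of 6 satellite cell and myoblast markers, Pax7 and Myf5 were too low to pass the filter. Of the 4 tested, Myog, Myod1 and Cdh15 rose at day 3 and Myog and Myod1 at day 7. Chodl was not called (0.19 at day 3, 0.30 at day 7). The paper counts Myog among atrophy-related genes, and which cells held this RNA cannot be read from whole biopsies. At day 3 the sum of all 6 markers was 12.9 to 20.8 TPM in sham and 237.4 to 339.9 TPM in denervated pads. At day 7 it was 15.6 to 23.8 TPM and 122.3 to 143.6 TPM. No keratinocyte, fibroblast, Schwann cell, endothelial, smooth muscle or macrophage marker was called at any of the 3 days in the unpaired fits. Pairing by mouse called the macrophage marker Lyz2 higher at day 7 (0.84, paired limma adjusted p = 0.0375, against 0.549 unpaired) and the fibre marker Pvalb lower at day 7 (-0.68, 0.0379 against 0.174). The sums of the Schwann cell markers were 350.4 to 630.1 TPM in the sham and 259.2 to 285.1 TPM in the denervated pads of day 7, and those of the macrophage markers 180.7 to 497.2 TPM and 341.7 to 720.4 TPM. The part of myoblast, Schwann cell or macrophage RNA in the differences of Dtna, Sgca and Sgcd was not tested.

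Among 14756 other genes, those whose within-mouse differences over the 9 mice were most like a member's were taken by Pearson's r, as a description. For Dtna they were Cox15 (r = 0.981, Spearman's rho = 0.833), an enzyme of heme A synthesis, and Six4 (r = 0.975, rho = 0.917), a homeobox factor of muscle. For Sgca they were Mettl11b (r = 0.976) and Shisa4 (r = 0.972), for Dmd Psmd11 (r = 0.979) and Cir1 (r = 0.976), for Dag1 4833439L19Rik (r = 0.984) and Qk (r = 0.975), for Sgcd Gm15443 (r = 0.967) and March3 (r = 0.958), and for Sgcb Gm2260 (r = 0.978) and Tmem126b (r = 0.969). Lama2 stood with Pdgfrl (r = 0.988) and Fam129a (r = 0.981), Utrn with Zfp780b (r = 0.965) and Tmod2 (r = 0.952), and Sntb1 with Trappc10 (r = 0.968) and Fam3c (r = 0.963). Each pair was picked as the top of all genes over 9 mice that share libraries and days, so no weight rests on the size of r.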

How the data were processed

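RNA from skin and muscle of both rostral whisker pads of 9 mice was sequenced with a kit that does not mark strand. The authors deduplicated and trimmed the reads, quantified them on the GRCm38 transcripts with kallisto 0.43.1 (bcl2fastq 2.17.1.14 before it) and normalized TPM values between samples in sleuth. The deposited values are this normalized signal for 113194 transcripts in 18 samples, not counts, and sample sums ran from 833186 to 1143839. Columns of day 7 were matched to samples by the sequencing number in the titles.

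Values were summed per gene over the 98.46% of transcripts found in GENCODE M21. Tests used limma 3.58.1 (R 4.3.3) with a mean trend on log2(TPM + 0.5), on genes of at least 1 TPM in 47% of the compared samples, with Benjamini-Hochberg adjustment over all genes and a threshold of 0.05. Each day was fitted on its 6 samples, and all days with day as a term. Replicates are separate mice. The numbers pair the pads of one mouse, as the titles name one animal, and residuals of the pads correlated in every mouse (0.163 to 0.568). The table holds no counts, so depth was estimated from the low values, of which 73.8 to 85.1% lay within 0.1 of a whole read, against 20% for an even spread. The fits were tested on simulated data. Promoter windows came from RefSeq.

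The 9 members and all lists were chosen with earlier results of these data known. Genes were named by a rule: every member; transcripts of at least 10% of a member's value; from each list the genes called and the 2 with the highest level; and the 2 genes most like each member. Alternatives were other scalings, filters, pseudocounts, no trend, the highest transcript, 1 fit of all samples, the mouse as a block and leaving out each mouse. Some genes of these lists are not reported here by name.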

Additional observations from a re-analysis of the deposited data

Results flagged for a closer look

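Dmd was marked because its difference between denervated and sham pads had opposite signs at days 1 and 7 in every mouse: it was below 0 in the 3 mice of day 1 (-0.10, -0.29 and -0.33 on the log2 scale) and above 0 in the 3 mice of day 7 (0.48, 0.63 and 0.27). The difference between the days was 0.70 in the fit of 18 samples, with a limma adjusted p of 0.213 over all genes, so that it did not pass the threshold. Summed fibre markers of the sham pads ran from 8004 to 39050 TPM at day 1 and from 39450 to 44870 TPM at day 7. At day 1 the sham and denervated sums were 8004 and 11640, 27780 and 24760, and 39050 and 23280 TPM in mice 1 to 3. At day 7 they were 39450 and 41300, 44870 and 37090, and 44810 and 37940 TPM. The sums were higher on the denervated side in mouse 1 and lower in mice 2 and 3 of each day. The mice of the 2 days were different animals, and their numbers do not link them. The part of muscle content was not tested.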

How the results depend on the processing

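The numbers of members called were recomputed under other choices. Such a number also moves with how many genes of all a choice called. The main fits called 217 of 14943 genes at day 3, 230 of 15081 at day 7 and 457 of 14757 over all days. At day 3, where 1 was called, 0 were called from the highest transcript alone, 2 with no trend in limma and 0 to 2 when a mouse was left out. At day 7, where 1 was called, 0 were called when all 18 samples shared 1 fit and 0 to 1 when a mouse was left out. Over all days, where 1 was called, 0 were called with genes kept at any TPM above 0, at a TPM of at least 5 (which leaves Sgcd untested by construction), with muscle-marker scaling, from the highest transcript and with the mouse as a replicate block, and 0 to 1 without a mouse. For the change of the effect from day 1 to day 3 and to day 7, leaving out a mouse gave 0 to 2. Without mouse 1 of day 1, which gave 2, 148 and 82 genes of all were called, against 18 and 24 in the main fits. In the fit of all 18 samples Dtna had an adjusted p of 0.304 at day 3 and 0.216 at day 7, and Sgcd at day 3 had 0.0172. The cause was not tested. In the paired fits (replicate block) the Sgcd call over all days was lost, and no other call of a member changed. These fits called 217 genes of all at day 3, 328 at day 7 and 517 over all days. Among the other lists the block added Sync, Pvalb and Lyz2 at day 7 and Lamb2 over all days.

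Signs turned only for differences that were not called. On muscle-marker scaling they were 0.0988 for Lama2 at day 1, 0.0324 for Sgcd at day 7 and 0.0668 for Utrn over all days, and with equal sums -0.0376 for Utrn at day 3. The muscle-marker scaling moved the median of all genes to 0.11 at day 1 and 0.17 at day 7, so its member values are read relative to that. Without a mouse the difference ran at day 1 from -0.437 to 0.254 for Lama2, -0.268 to 0.0296 for Sgcb and -0.632 to 0.0572 for Dtna, at day 3 from -0.159 to 0.138 for Utrn, -0.481 to 0.0689 for Lama2 and -0.100 to 0.0407 for Sntb1, at day 7 from -0.0772 to 0.205 for Utrn, and over all days from -0.0705 to 0.0391 for Utrn, -0.0396 to 0.141 for Lama2 and -0.031 to 0.0891 for Dmd. With 3 mice a day, and an estimated 19 to 71 reads per sample on Sgcd, a difference that was not called may still exist.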
